A study of Mus musculus with 18 samples.

Results

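Complex I (NADH:ubiquinone oxidoreductase) is the entry point of electrons into the mitochondrial respiratory chain, and the nuclear genes of its subunits carry symbols that start with Nduf. The genes described here were taken by name, as every symbol made of Nduf, one of the letters a, b, c, s or v, and a number, which leaves out the assembly factors named Ndufaf. The rule found 34 genes among the 17097 genes measured, and all 34 passed the filter on low values that left 12822 genes to test. Of the 34, 32 encode subunits of complex I. The other two are Ndufa4, whose product is now assigned to cytochrome c oxidase, and its relative Ndufa4l2, so the set is described as 32 complex I genes with these 2 beside it. The gene of the subunit NDUFS5 was represented only by probe sets filed under the pseudogene name Ndufs5-ps, and which copy they read is uncertain. Some other nuclear subunits were not analysed here, nor were the subunits encoded in mitochondrial DNA.

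The enzyme has a matrix arm, which oxidises NADH and passes its electrons through iron-sulfur clusters to ubiquinone, and a membrane arm, which pumps protons. A set of core subunits does this chemistry, and accessory subunits surround and stabilise them. Neurons depend on oxidative phosphorylation for most of their ATP, and defects of complex I are a common cause of mitochondrial encephalopathy, Leigh syndrome among them.

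The study measured how mRNAs divide by the length of their poly(A) tails in mouse brain when Cpeb4, which encodes an RNA-binding protein of the cytoplasm that regulates those tails, is reduced or lost. Tissue of cortex plus striatum came from mice 6 weeks old of 3 genotypes: WT, CPEB4 GT/+, which carries 1 GT allele of Cpeb4, and CPEB4 KO. Each genotype had samples numbered 1 and 2 in each fraction, 18 arrays in all, and the 3 arrays of a genotype that share a number were taken as 1 mouse, which the labels do not state: INPUT, which is total RNA; WASH, which left poly(U) agarose at 25% formamide and is enriched for short tails; and ELUTED, which left it at 90% formamide and is enriched for long tails. No other allele or treatment is named for any group, and the labels do not say how the KO allele was made, nor from which litters the mice came, so p-values measure the spread between these samples only.

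Values are log2 array intensities, and the difference log2 ELUTED minus log2 WASH within a mouse is called the long-tail ratio. The arrays were normalised to each other, so the ratio of a gene is set against that of the rest and says nothing of the total amount of RNA. Across all genes the median long-tail ratio was -0.18, and centring every array on its median would put it at -0.07. A difference was called where the limma fit over all 12822 genes gave a Benjamini-Hochberg adjusted p under 0.05. The probe sets read amounts in a piece of tissue, so fewer cells of a type and less RNA per cell cannot be told apart.

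One array stood apart. The INPUT array of CPEB4 KO mouse 1 carried liver transcripts: albumin (Alb) read 12.1 on it against 5.86 to 6.86 on the other 17 arrays, and Apoa1 read 11.0 against 6.52 to 6.96. Medians that use this array, and some single values, are therefore also given without this mouse. The other results that use INPUT include it, among them counts without overlap, counts of unadjusted p and differences of cell type markers. The WASH and ELUTED arrays of that mouse were within the range of the others for these genes. Neuron markers (Snap25, Syt1, Rbfox3, Tubb3 and Stmn2) had a mean level of 11.1 to 11.4 on every array, and 2 arrays of a group correlated across genes at 0.979 to 0.994, except the CPEB4 GT/+ ELUTED arrays at 0.966. Cpeb4 itself read 8.15 and 7.62 in WT INPUT, 7.31 and 7.0 in CPEB4 GT/+ and 6.62 and 6.91 in CPEB4 KO, with no overlap between the genotypes. Its KO minus WT difference of -1.12 (SE 0.19) did not pass the test over all genes (limma adjusted p = 0.253).

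All 32 complex I genes were lower in the long-tail than in the short-tail fraction. Their median long-tail ratio was -1.21, from -2.06 for Ndufc2 to -0.64 for Ndufa10, and the smallest adjusted p was 5.80e-05 (limma). With Ndufa4 that made 33 of the 34 genes lower, where 48.5% of all genes tested were lower, and 1 gene higher, Ndufa4l2, where 24.9% were higher. In each of these 33 genes all 6 mice lay below 0, as they did in 47.8% of all genes. Probe sets of the complex I genes were bright, with 30 of the 32 at a mean level above 9.03, where 3206 of the 12822 genes lay. All genes above that level had a median long-tail ratio of -0.30, against -1.21 for the 30.

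**Figure D1:**
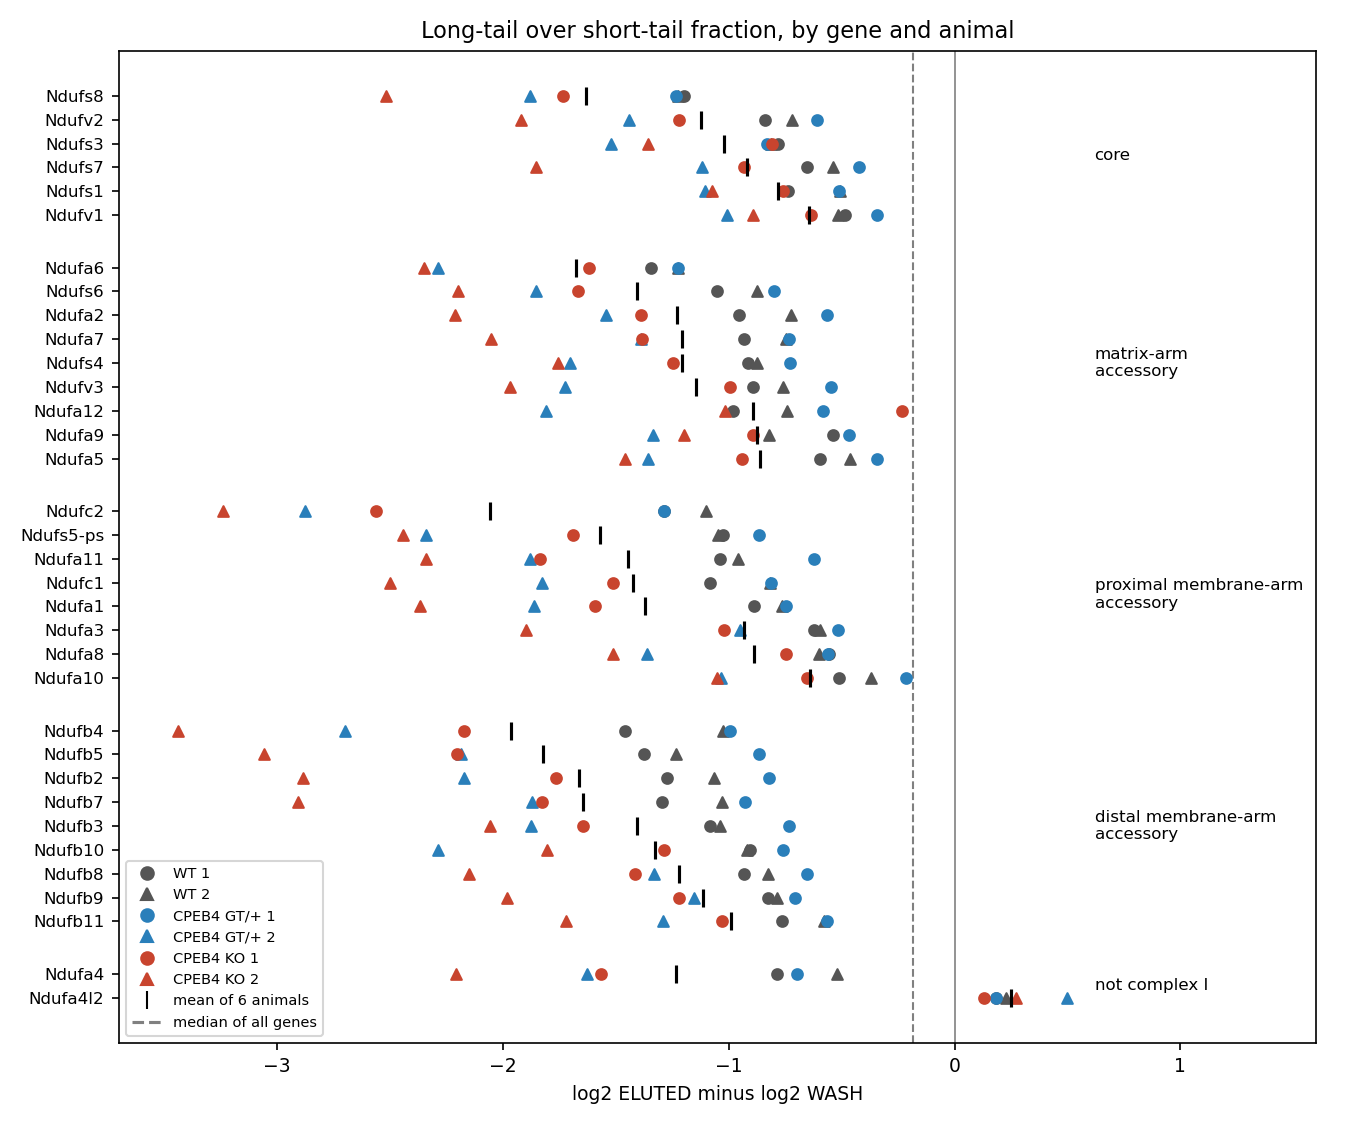
Long-tail ratio (log2 ELUTED minus log2 WASH, horizontal axis) of the 34 genes, grouped by their place in the enzyme; each point is 1 mouse, the black bar is the mean of the 6 mice, and the dashed line is the median of all genes at -0.18. Every point of the 32 complex I genes and of Ndufa4 lies below 0, and every point of Ndufa4l2 lies above 0.

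The promoter windows of the members were searched for 1 element, as a description only, and its part in the long-tail ratios was not tested. Nuclear respiratory factor 1 (NRF1) is a transcription factor known for its sites in promoters of respiratory chain genes, and its motif was searched as GCGC, then 2 bases of any kind, then GCGC, a pattern that reads the same on both strands, in the 300 bases from 250 before to 50 after each gene's start (RefSeq, GRCm38.p6). Of the 34 genes, 29 had such a window, and 7 of these (24.1%) held the motif. Among all genes with a RefSeq window, which were not limited to those measured here, 1891 of 27025 (7%) held it. These shares thus rest on unlike sets of genes. A match of letters describes the window and is not evidence of binding. The 2 matches in the window of Ndufv2 overlap each other. The stretches around the 7 motifs, 5′ to 3′ along the gene with the motif in capitals, lie in the GRCm38.p6 assembly as follows: Ndufa5 at chr6:24527687-24527736 (minus strand), Ndufa6 at chr15:82354242-82354288 (minus), Ndufa8 at chr2:36049339-36049388 (minus), Ndufa11 at chr17:56717682-56717731 (plus), Ndufb4 at chr16:37654530-37654579 (minus, the first of 3 motifs), Ndufs6 at chr13:73328469-73328518 (minus) and Ndufv2 at chr17:66101547-66101596 (minus, the first of 2 motifs).
Ndufa5: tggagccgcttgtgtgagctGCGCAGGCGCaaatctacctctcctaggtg
Ndufa6: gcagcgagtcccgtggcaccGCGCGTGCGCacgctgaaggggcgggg
Ndufa8: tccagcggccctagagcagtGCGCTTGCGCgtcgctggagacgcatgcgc
Ndufa11: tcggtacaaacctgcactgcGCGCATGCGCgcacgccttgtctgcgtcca
Ndufb4: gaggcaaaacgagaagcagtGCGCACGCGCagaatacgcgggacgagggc
Ndufs6: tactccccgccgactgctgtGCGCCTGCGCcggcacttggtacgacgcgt
Ndufv2: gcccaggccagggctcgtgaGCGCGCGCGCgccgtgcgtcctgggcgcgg
These 7 genes lie across the range of long-tail ratios, from -1.96 for Ndufb4 and -1.67 for Ndufa6 to -0.89 for Ndufa8 and -0.86 for Ndufa5.

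The 6 core subunits measured were all lower in ELUTED, with a median long-tail ratio of -0.97. Ndufs8, which holds iron-sulfur clusters near the ubiquinone site, had the lowest ratio of the 6. Its WASH levels were 9.30 and 9.0 in WT, 9.36 and 9.20 in CPEB4 GT/+ and 9.06 and 9.30 in CPEB4 KO, and its ELUTED levels were 8.10 and 7.78, 8.12 and 7.32, and 7.33 and 6.78. The lowest WASH array thus lay above the highest ELUTED array, and the mean difference was 3.10-fold lower in ELUTED (-1.63, SE 0.12, limma adjusted p = 5.80e-05). Ndufv1, the subunit that binds NADH and flavin, had the highest ratio. Its WASH levels were 12.14 and 12.16 in WT, 12.13 and 12.31 in CPEB4 GT/+ and 12.10 and 12.15 in CPEB4 KO, against ELUTED levels of 11.65 and 11.64, 11.79 and 11.30, and 11.46 and 11.26. Its fractions did not overlap either, with a 1.57-fold lower mean in ELUTED (-0.65, SE 0.10, limma adjusted p = 0.000590). Between these came the iron-sulfur subunits Ndufv2 (-1.12), Ndufs7 (-0.92) and Ndufs1 (-0.78), and Ndufs3 (-1.02), which lies in the part of the arm that faces ubiquinone.

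The 9 accessory subunits of the matrix arm were all lower in ELUTED, with a median ratio of -1.20. Ndufa6, which anchors an acyl carrier protein to the arm and whose promoter window holds the NRF1 motif, was lowest. It read 9.29 and 9.11 in WT WASH, 9.26 and 9.41 in CPEB4 GT/+ WASH and 9.07 and 9.28 in CPEB4 KO WASH, and 7.95 and 7.89, 8.04 and 7.12, and 7.45 and 6.93 in the matching ELUTED arrays. The fractions were separate, with a 3.19-fold lower mean in ELUTED (-1.67, SE 0.15, limma adjusted p = 7.46e-05). Ndufa5, also with the motif, had the highest ratio of the 9. It read 12.45 and 12.33 in WT WASH, 12.34 and 12.49 in CPEB4 GT/+ WASH and 12.31 and 12.40 in CPEB4 KO WASH, and 11.85 and 11.87, 12.00 and 11.13, and 11.37 and 10.95 in ELUTED. Its difference was 1.81-fold (-0.86, SE 0.13, limma adjusted p = 0.000644).

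The other accessory genes of the matrix arm were Ndufs6, a zinc-binding subunit (-1.41), Ndufa2 (-1.23), Ndufa7 (-1.21), Ndufs4, whose loss in mice is a standard model of Leigh syndrome (-1.20), Ndufv3 (-1.15), Ndufa12 (-0.89) and Ndufa9 (-0.87). Ndufa12 spread unevenly over the mice. Its long-tail ratio was -0.98 and -0.74 in WT, -0.58 and -1.81 in CPEB4 GT/+ and -0.23 and -1.02 in CPEB4 KO, so that CPEB4 KO mouse 1 was the highest of the 6 mice, as it was for no other complex I gene. A further probe set of Ndufa12 with a mean level of 9.70 gave a mean ratio of -1.27.

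The 8 accessory subunits of the proximal membrane arm had a median ratio of -1.40 and held both ends of the range. Ndufc2, a small membrane subunit, was the lowest of all 34 genes and ranked 16 among 12822. Its WASH levels were 10.33 and 10.43 in WT, 10.47 and 10.60 in CPEB4 GT/+ and 10.35 and 10.67 in CPEB4 KO, and its ELUTED levels 9.04 and 9.34, 9.19 and 7.72, and 7.79 and 7.44. WASH was alike in all 6 mice, and ELUTED split into 3 arrays near 9 and 3 below 8. The mean difference was 4.16-fold (-2.06, SE 0.19, limma adjusted p = 7.97e-05). Ndufa10, a subunit with a nucleoside kinase fold, was the least lowered of the complex I genes. It read 10.92 and 10.76 in WT WASH, 10.89 and 10.94 in CPEB4 GT/+ WASH and 10.84 and 10.89 in CPEB4 KO WASH, against 10.41 and 10.39, 10.67 and 9.90, and 10.19 and 9.84 in ELUTED, a 1.56-fold difference (-0.64, SE 0.12, limma adjusted p = 0.00137). Ndufs5-ps (-1.57), Ndufa11 (-1.45), Ndufc1 (-1.43), Ndufa1, which lies on the X chromosome (-1.37), Ndufa3 (-0.93) and Ndufa8, a subunit of the intermembrane face (-0.89), fell between them.

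The 9 accessory subunits of the distal membrane arm had a median of -1.41. Ndufb4, whose promoter window held 3 NRF1 motifs, was the lowest of the 9. It read 10.19 and 9.99 in WT WASH, 10.28 and 10.41 in CPEB4 GT/+ WASH and 9.99 and 10.25 in CPEB4 KO WASH, and 8.73 and 8.96, 9.29 and 7.71, and 7.82 and 6.81 in ELUTED. The difference was 3.90-fold (-1.96, SE 0.23, limma adjusted p = 0.000169), and a second bright probe set of Ndufb4 gave a mean ratio of -1.83. Ndufb11, an X-linked subunit, was the highest of the 9. It read 11.84 and 11.80 in WT WASH, 11.78 and 11.92 in CPEB4 GT/+ WASH and 11.71 and 11.84 in CPEB4 KO WASH, and 11.07 and 11.22, 11.22 and 10.63, and 10.68 and 10.12 in ELUTED, a 1.99-fold difference (-0.99, SE 0.12, limma adjusted p = 0.000215). Ndufb5 (-1.82), Ndufb2 (-1.66), Ndufb7 (-1.64), Ndufb3 (-1.41), Ndufb10 (-1.33), Ndufb8 (-1.22) and Ndufb9 (-1.11) lay between them, and all passed the test.

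The pair of genes outside complex I differed from each other. Ndufa4 read 11.58 and 11.58 in WT WASH, 11.70 and 11.61 in CPEB4 GT/+ WASH and 11.48 and 11.61 in CPEB4 KO WASH, and 10.80 and 11.06, 11.00 and 9.98, and 9.92 and 9.40 in ELUTED. It was 2.35-fold lower in ELUTED (-1.23, SE 0.14, limma adjusted p = 0.000135), within the range of the complex I genes. Ndufa4l2, a relative known as a target of hypoxia signalling, was dim: 6.21 and 6.41, 6.37 and 6.16, and 6.38 and 6.27 in WASH, and 6.40 and 6.64, 6.55 and 6.66, and 6.51 and 6.54 in ELUTED. It was 1.19-fold higher in ELUTED (0.25, SE 0.08, limma adjusted p = 0.0173), a direction that turned to -0.24 when arrays were aligned on their hybridisation controls.

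More than 1 probe set was present for 19 of the 34 genes, and 28 probe sets besides those used could be compared. Of the 28, 22 had a mean long-tail ratio below 0. The 6 above 0 belonged to Ndufa11, Ndufa12, Ndufb4, Ndufb8, Ndufs4 and Ndufs8, and of these only that of Ndufa11 (0.35) and that of Ndufs8 (0.03) had a mean level above the filter of 5.52. Probe sets above the filter thus went opposite ways for Ndufa11, with -1.45 at the one used, and for Ndufs8, with -1.63, -1.19 and -1.07 at 3 probe sets and 0.03 at the dimmest.

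Measured against INPUT, the lower long-tail ratio came mostly from the ELUTED side. ELUTED was lower than INPUT for all 32 complex I genes, with a median difference of -1.0 where the median of all genes was -0.04, and for 33 of the 34 genes where 29.5% of all genes were lower. WASH was higher than INPUT for 19 of the 34, where 45.1% of all genes were higher, and the median of the 32 was 0.16 against 0.11 for all genes. The members' count in WASH thus stood much nearer to that of all genes than their count in ELUTED did. The remaining gene to pass in WASH was Ndufa4l2, lower than INPUT at -0.23 (SE 0.06, limma adjusted p = 0.00839), as 19.5% of all genes were. The ELUTED difference was the larger in size in 31 of the 32 genes, the exception being Ndufv1 with 0.33 in WASH and -0.31 in ELUTED.

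By role, the WASH counts are given beside the 45.1% of all genes that were higher, and differences between the roles were not tested. All 6 core genes were higher in WASH than in INPUT, with Ndufv2 at 0.38 and Ndufs8 at 0.37, as were 7 of the 9 distal genes, with Ndufb5 highest at 0.43 (SE 0.05, limma adjusted p = 0.000177) and Ndufb9 at 0.40. Of the matrix-arm accessory genes 4 of 9 passed, and of the proximal genes 2 of 8, Ndufc1 (0.42) and Ndufa10 (0.14). Ndufc2 (0.11) and Ndufb4 (0.08), which had the lowest long-tail ratios, did not pass in WASH, and their ELUTED minus INPUT differences were -1.95 and -1.89. Without CPEB4 KO mouse 1, the medians of the 32 complex I genes were 0.19 for WASH and -1.13 for ELUTED. Those of all genes were 0.12 and -0.05. The WASH calls of Ndufs3 of the core, Ndufa10 and Ndufb2 were lost there. WASH and ELUTED differences share their INPUT arrays.

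**Figure D2:**
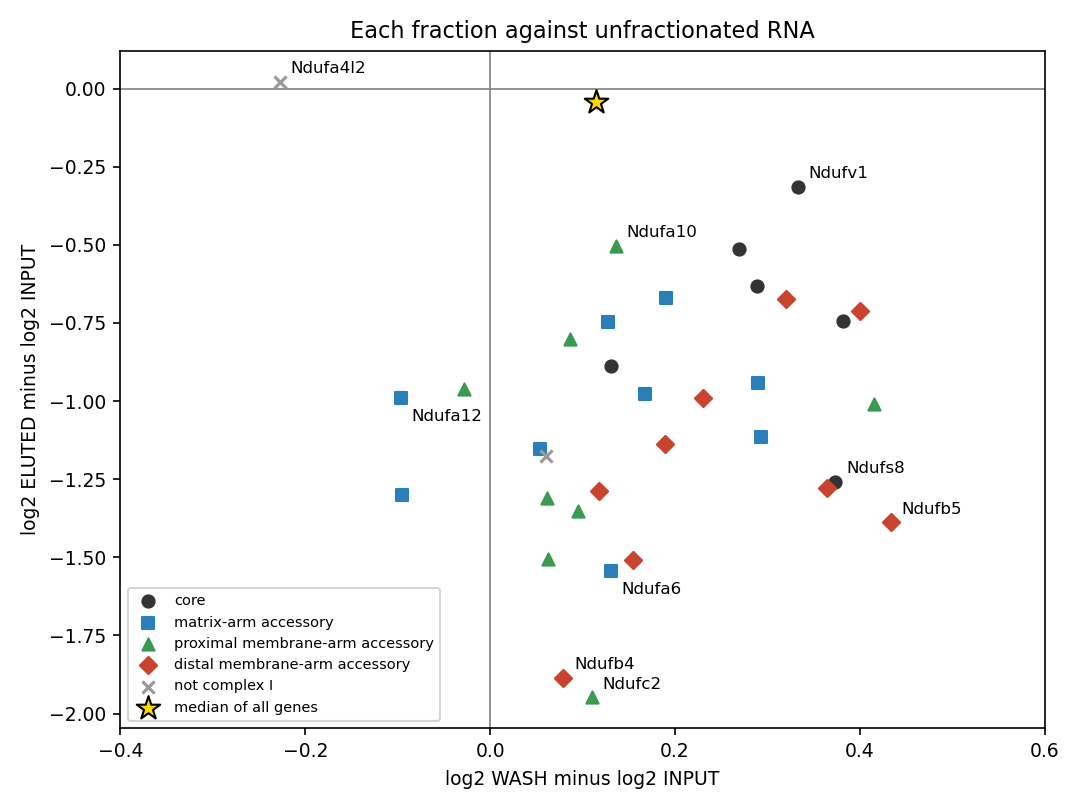
Mean log2 WASH minus log2 INPUT (horizontal axis) against mean log2 ELUTED minus log2 INPUT (vertical axis) over the 6 mice; each point is 1 of the 34 genes, its shape and colour give the place in the enzyme, and the star is the median of all genes. The complex I genes spread from -0.31 to -1.95 on the vertical axis and only from -0.10 to 0.43 on the horizontal one.

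RNA quality probes moved with the fractions. The difference between the 3' and the 5' probe set of Actb was -0.47 to -0.31 on ELUTED arrays, -0.21 to -0.06 on WASH arrays and -0.48 to -0.41 on INPUT arrays, and that of Gapdh lay between -0.13 and 0.06 on WASH and ELUTED arrays. The standard deviation over all probe sets was 1.96 to 2.01 on WASH arrays and 1.78 to 1.90 on ELUTED ones. The part of these in the long-tail ratios was not tested.

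Taken by genotype, 21 of the 34 genes were lower in ELUTED than in WASH in WT, where 22.2% of all genes were lower, 33 in CPEB4 GT/+, where 36.2% were, and 32 in CPEB4 KO, where 38.7% were. The medians of the 32 complex I genes were -0.85, -1.19 and -1.66 in that order. The 11 complex I genes that did not pass in WT were below 0 in both WT mice, among them Ndufb4 at -1.24 (limma adjusted p = 0.0505) and Ndufa1 at -0.83 (limma adjusted p = 0.0522). In CPEB4 KO, Ndufa12 alone of the 32 did not pass (-0.63, limma adjusted p = 0.0910).

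The mice of a genotype differed from each other as well. The median long-tail ratio of the 32 genes was -0.92 and -0.82 in the WT mice, -0.72 and -1.71 in the CPEB4 GT/+ mice and -1.34 and -2.02 in the CPEB4 KO mice. Less each mouse's median of all genes, these became -0.76 and -0.67, -0.60 and -1.45, and -1.19 and -1.79. The CPEB4 GT/+ mice thus bracketed both WT mice, and the gap between them was larger than that between the WT and CPEB4 KO medians. CPEB4 KO mouse 2 was the lowest of the 6 for 26 of the 32 genes and CPEB4 GT/+ mouse 2 for the other 6, while CPEB4 GT/+ mouse 1 was the highest for 26. Over the 6 mice the median was -1.25 ± 0.53 (SD, n = 6) for the ratio, 10.89 ± 0.05 for the WASH level and 9.70 ± 0.44 for the ELUTED level, so the spread lay mainly on the ELUTED arrays. The ELUTED arrays of CPEB4 GT/+ mouse 2 and CPEB4 KO mouse 2 also had the smallest SD over all probe sets, 1.78 and 1.80, where the other 4 lay between 1.83 and 1.90 with CPEB4 GT/+ mouse 1 at the top. The same arrays had the lowest mean log2 levels of the microglia markers, 8.22 and 8.18 against 8.41 to 8.69. So it was for the oligodendrocyte markers, 9.71 and 9.95 against 10.16 to 10.28, and the endothelial markers, 7.74 and 7.67 against 7.78 to 7.94. Astrocyte markers differed less, 9.056 and 9.024 against 9.063 to 9.109. Neither the neuron markers nor the cortical and striatal ones had both arrays lowest. The part of these features in the members' values was not tested.

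**Figure D3:**
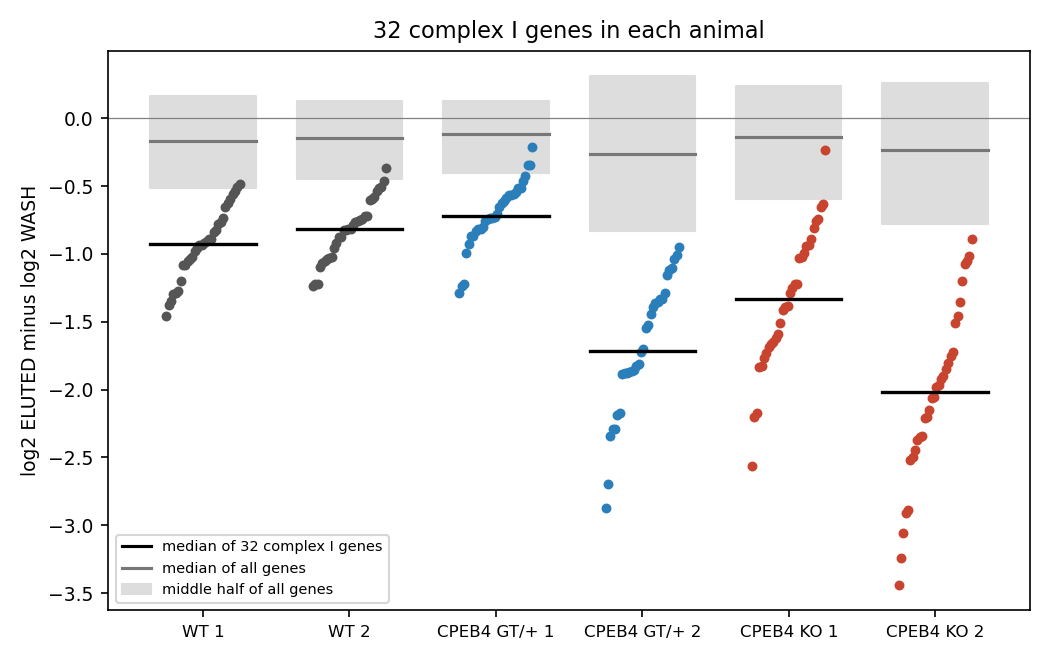
Long-tail ratio (log2 ELUTED minus log2 WASH, vertical axis) in each of the 6 mice; each point is 1 of the 32 complex I genes, sorted within the mouse, the black line is their median, and the grey band and line are the interquartile range and the median of all genes. The medians run from -0.72 in CPEB4 GT/+ mouse 1 to -2.02 in CPEB4 KO mouse 2, and the points of the WT mice end at -1.46.

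For the loss of Cpeb4, the long-tail ratios of the complex I genes were lower in CPEB4 KO than in WT by value, and none passed the test. The KO minus WT difference in long-tail ratio was below 0 for 31 of the 32 genes with a median of -0.79, where the median of all genes was -0.04. Without CPEB4 KO mouse 2 the median was -0.43, and without CPEB4 KO mouse 1 it was -1.19. No gene of the 12822 was called by limma in this comparison, and 791 had an unadjusted p under 0.05 (6.17% of all genes, 4.84% in the lower direction). Among the 34 genes 21 had one, all lower. Of the 32 complex I genes 20 had one, and this count was 0 without CPEB4 KO mouse 2, 11 and 3 without WT mouse 1 and mouse 2, 27 without either CPEB4 GT/+ mouse, and 5 with a trend in eBayes, as with arrays aligned on hybridisation controls. The ratios of both KO mice lay below those of both WT mice for 31 of the 34, against 31.2% of all genes. With 2 mice against 2, an exact permutation test of a single gene cannot go below p = 0.333. The long-tail ratios of all genes differed in spread between mice as well. Their interquartile range was -0.51 to 0.16 and -0.44 to 0.13 in WT and -0.59 to 0.24 and -0.78 to 0.26 in CPEB4 KO. In the CPEB4 GT/+ mice it was -0.41 to 0.13 and -0.83 to 0.31. Setting members against the median of all genes does not adjust for this spread, and its part in their values was not tested.

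Ndufa4, Ndufc2 and Ndufb5 had the smallest unadjusted p of the 34. The long-tail ratio of Ndufa4 was -0.79 and -0.52 in WT and -1.57 and -2.21 in CPEB4 KO, a difference of -1.23 (SE 0.33, limma adjusted p = 0.756). That of Ndufc2 was -1.29 and -1.10 in WT and -2.56 and -3.24 in CPEB4 KO, a difference of -1.71 (SE 0.46), which ranked 3 among all genes with the same adjusted p of 0.756 by limma. That of Ndufb5 was -1.38 and -1.23 in WT and -2.20 and -3.06 in CPEB4 KO, a difference of -1.32 (SE 0.42, limma adjusted p = 0.756). In each of the 3 genes the genotypes did not overlap. The medians by place were -0.54 for core, -0.67 for matrix-arm accessory, -1.04 for proximal and -0.90 for distal genes, and the gene on the other side of 0 was Ndufa12 (0.24, SE 0.40).

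CPEB4 GT/+ stood between the other genotypes by its medians but not by its mice. Its difference from WT, which uses the same WT mice, was below 0 for all 32 genes with a median of -0.28, and no gene of the 12822 was called by limma, with 115 (0.897%) at an unadjusted p under 0.05, none of them among the 34. The 3 genes with the smallest unadjusted p were Ndufc2 (-0.89), Ndufa4 (-0.51) and Ndufb10 (-0.61), each with a limma adjusted p of 0.9996. Ndufb10 read -0.91 and -0.92 in WT and -0.76 and -2.29 in CPEB4 GT/+, so the WT mice lay between the CPEB4 GT/+ mice, and Ndufa4 read -0.70 and -1.63 in CPEB4 GT/+, the first of which lay between its WT values. Groups did not overlap, with CPEB4 GT/+ lower, for 3 of the 34, where 10.6% of all genes did so. Without CPEB4 GT/+ mouse 2 the median difference of the 32 genes turned to 0.17.

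CPEB4 KO against CPEB4 GT/+ gave a median of -0.56, again with no call by limma in the 12822 genes and 237 (1.85%) at an unadjusted p under 0.05, 5 of them among the 34. The median was -0.08 without CPEB4 GT/+ mouse 1 and -0.95 without mouse 2, and -0.88 without CPEB4 KO mouse 1 and -0.18 without mouse 2. Ndufb8 (-0.79, SE 0.30), Ndufb5 (-1.10, SE 0.42) and Ndufa3 (-0.73, SE 0.29) had the smallest unadjusted p, all at a limma adjusted p of 0.9999. Groups did not overlap, with CPEB4 KO lower, for 4 of the 34, where 11.8% of all genes did so.

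Set out by fraction, the values of CPEB4 KO differed from WT on the ELUTED arrays. The KO minus WT difference of the 32 genes had a median of 0.01 in WASH, with 13 genes below 0 and 19 above in a range of -0.13 to 0.13. In ELUTED the median was -0.84, with 31 genes below 0, in a range of -1.58 for Ndufc2 to 0.29 for Ndufa12. The CPEB4 GT/+ minus WT medians were 0.04 in WASH and -0.24 in ELUTED. These fraction differences are values without a test.

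**Figure D4:**
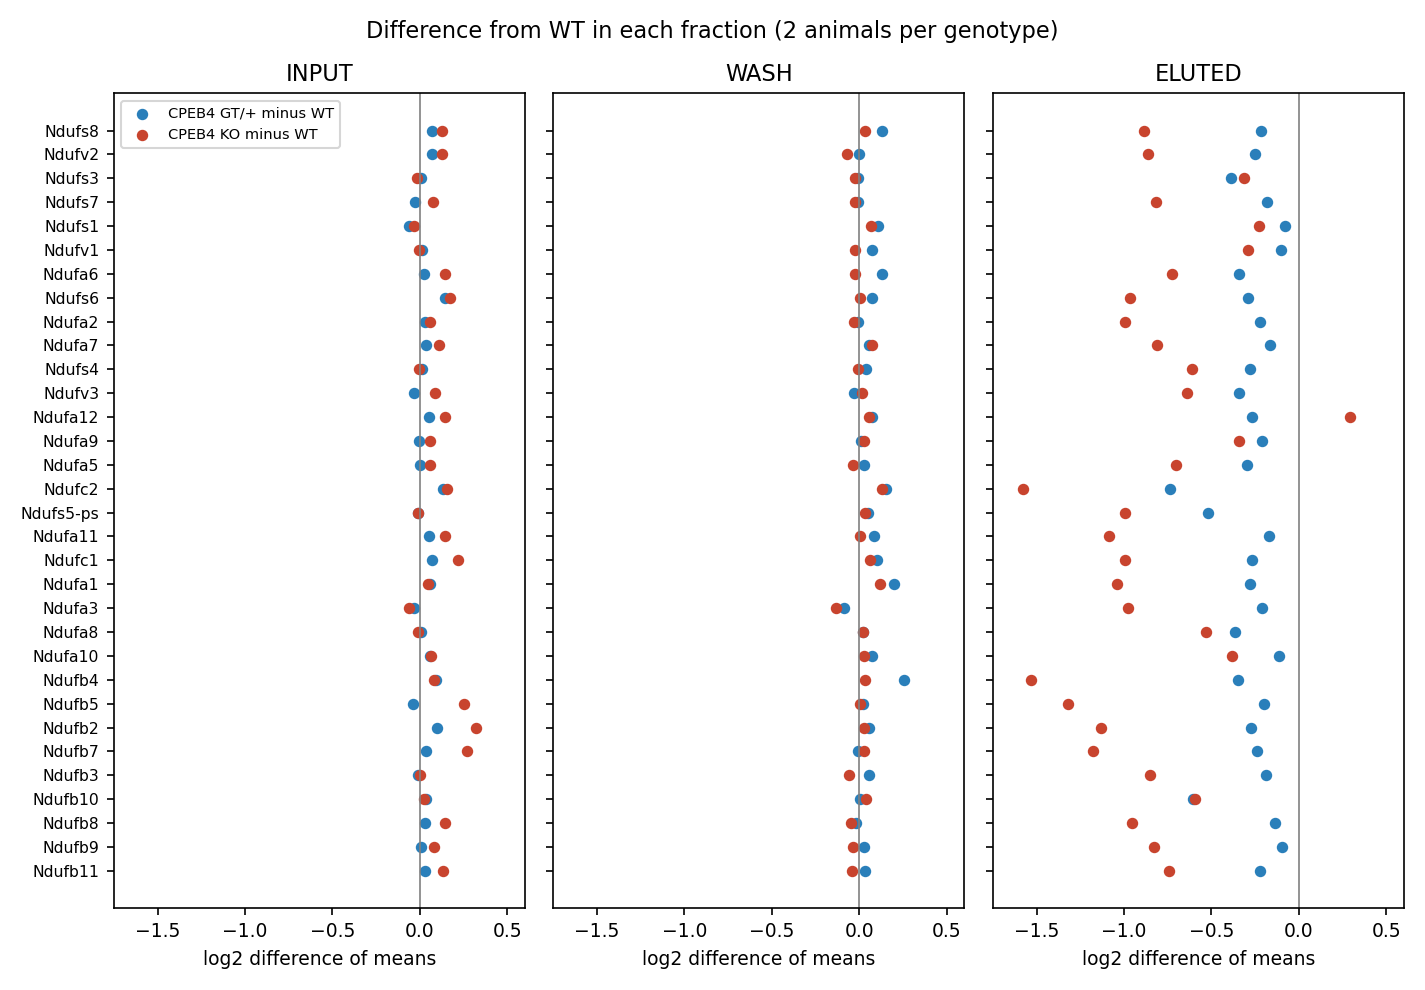
Difference of group means from WT (log2, horizontal axis) in INPUT, WASH and ELUTED for the 32 complex I genes; blue points are CPEB4 GT/+ minus WT and red points CPEB4 KO minus WT, with 2 mice per genotype. WASH points stay within -0.13 and 0.26, while the red ELUTED points run from -1.58 to 0.29.

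In total RNA the complex I genes were not called different between genotypes. The INPUT difference KO minus WT had a median of 0.08 over the 32 genes, with 25 above 0, where the median of all genes was 0.03. Limma called none of the 12822 genes, and 1404 (10.9%) had an unadjusted p under 0.05, with 2 of the 34 among them. The KO mice were higher than the WT mice without overlap for 16 of the 34, where 24.7% of all genes were. Ndufb2, an accessory subunit of the distal arm, read 10.67 and 10.66 in WT, 10.74 and 10.79 in CPEB4 GT/+ and 10.95 and 11.03 in CPEB4 KO. Both KO mice were highest, with a KO minus WT difference of 0.32 (SE 0.09, limma adjusted p = 0.388).

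Ndufb5 read 10.10 and 10.0 in WT, 10.04 and 9.99 in CPEB4 GT/+ and 10.21 and 10.39 in CPEB4 KO, a difference of 0.25 (SE 0.10, limma adjusted p = 0.446), and Ndufc1 differed by 0.22 (SE 0.09, limma adjusted p = 0.460). Without CPEB4 KO mouse 1, whose INPUT array carried liver transcripts, 28 of the 32 genes were above 0 with a median of 0.09, again with no call. Ndufb2 was then at 0.36 and Ndufb5 at 0.34. By value, Ndufb5 was thus higher in CPEB4 KO INPUT and had a lower long-tail ratio in CPEB4 KO, without a call in either. The 5 microglia markers (Cx3cr1, P2ry12, C1qa, Tmem119 and Csf1r) differed KO minus WT in INPUT by 0.11 to 0.39, with none called. All 5 were without overlap, as were 24.7% of all genes. Their mean level was 8.36 and 8.55 in WT, 8.62 and 8.49 in CPEB4 GT/+ and 8.77 and 8.69 in CPEB4 KO. Astrocyte markers were also all above 0, from 0.05 for Gja1 to 0.59 for Aldh1l1 (SE 0.27). Their mean level was 9.07 and 9.14 in WT, 8.94 and 9.03 in CPEB4 GT/+ and 9.36 and 9.23 in CPEB4 KO. The highest of these was the array with liver transcripts. Endothelial markers ran from -0.35 for Tek to 0.60 for Ly6c1, oligodendrocyte markers from -0.20 to 0.22 and neuron markers from -0.05 to 0.06. These marker differences include CPEB4 KO mouse 1, and their part in the INPUT values was not tested.

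CPEB4 GT/+ minus WT in INPUT had a median of 0.03, with no call by limma in 12822 genes and 438 (3.42%) at an unadjusted p under 0.05, none among the 34. Its 3 genes of smallest p were Ndufs6 (0.15), Ndufc2 (0.13) and Ndufb2 (0.10). CPEB4 KO minus CPEB4 GT/+ had a median of 0.06, with no call and 1043 genes (8.13%) at an unadjusted p under 0.05, 2 of them members. Ndufb5 (0.29), Ndufb2 (0.22) and Ndufb7 (0.23) led it. Without CPEB4 KO mouse 1 the median was 0.07 and Ndufb7 was at 0.084.

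Other genes of the pathway were set beside the complex I genes as counts. Among all genes tested, 48.5% were lower in ELUTED than in WASH. Of the subunits of complexes II to V, 37 of 38 were lower in ELUTED than in WASH with a median of -0.83, the exception being Sdha, the flavoprotein of succinate dehydrogenase (-0.13, limma adjusted p = 0.129). The median was -1.27 for the 8 genes of complex III, with Uqcrb lowest at -2.24, -0.78 for the 10 of complex IV and -0.93 for the 17 of complex V. Subunit genes of the other respiratory complexes thus had long-tail ratios of the same direction. In the KO minus WT difference of the ratio complexes II to V had a median of -0.53, where that of all genes was -0.04, and 34 of 38 were lower without overlap, as were 31.2% of all genes.

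Assembly factors of complex I, which build the enzyme and are not part of it, were lower in 14 of 16 cases with a median of -0.71. Of all genes tested 48.5% were lower, a share that also applies to the matrix enzymes below. Ndufaf4 (-1.57) and Ndufaf2 (-1.55) were lowest, and Tmem186 (-0.04) and Timmdc1 (-0.07) did not pass. Ndufab1, the acyl carrier protein that complex I holds and that the naming rule missed, was lower at -1.27. Enzymes of the matrix that supply NADH were lower in 12 of 14 cases with a median of -0.62, and Cs, citrate synthase (0.07), and Mdh2, malate dehydrogenase (-0.13), did not pass. Of 7 regulators of mitochondrial gene expression 4 were lower and 1 higher, shares near the 48.5% and 24.9% of all genes, from Polrmt, the mitochondrial RNA polymerase, at -1.66 to Ppargc1b, a transcriptional coactivator, at 0.91. Nrf1 itself (0.12) did not pass.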

How the data were processed

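The deposited table holds log2 values that the authors made with RMA, per the submitters' processing notes, from 18 arrays; version and annotation are not given in the sources used here. Of 45141 probe sets, 28898 carried 1 gene symbol in the supplied probe set table and 28689 of these matched RefSeq (GRCm38.p6) by Entrez identifier. This named 17097 genes, each read at its brightest probe set by the mean of the 18 arrays; 12822 genes were tested after the dimmest 25% (mean under 5.52) were dropped.

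Differences within a mouse (ELUTED minus WASH, WASH minus INPUT, ELUTED minus INPUT) and INPUT levels were fitted with genotype means over all 6 mice in limma 3.58.1 (R 4.3.3; lmFit, contrasts.fit, eBayes), two-sided, with 3 residual degrees of freedom, in 12 comparisons, and adjusted by Benjamini-Hochberg over the 12822 genes at 0.05. SE is the moderated one. The number of arrays limits the precision.

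All members are named, each in its place in the enzyme; values per array are given for the lowest and highest long-tail ratio of each place and for genes of smallest p per genotype contrast. Ndufs8 and Ndufb4 probe sets, Ndufa12 and the liver genes were singled out after their values were seen. The members, the gene lists and the rules were chosen with earlier results of these data known.

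Alternatives were array centring, alignment on hybridisation controls, quantile normalization, other filters, the mean of probe sets, eBayes with trend, a replicate block, unpaired fractions, INPUT as denominator, and each mouse left out.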

Additional observations from a re-analysis of the deposited data

How the results depend on the processing

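The 33 lower genes in ELUTED minus WASH over the 3 genotypes stayed at 33 under every alternative run, except 32 when Ndufa4 and Ndufa4l2 were left out, and the median of the 32 complex I genes ran from -1.70 (arrays aligned on hybridisation controls) to -1.0 (INPUT as denominator). Of the genes called in it, 34% were higher, and 44.5% with centred arrays, 41.1% with quantile normalization and 2.14% with aligned arrays, which moved the median of all genes from -0.18 to -0.67. Of all 12822 genes, 6217 were lower in the fit reported, 9230 with aligned arrays, 5077 with quantile normalization and 3784 with INPUT as denominator. The WT count of 21 became 13 with quantile normalization and 0 with INPUT as denominator, where 1840 and 19 of the 12822 genes were lower. It fell without either WT mouse and without either CPEB4 KO mouse, and rose without either CPEB4 GT/+ mouse. The count of all genes lower moved the same way each time. The WT median of the 32 genes was -0.82 without WT mouse 1 and -0.92 without mouse 2. The CPEB4 GT/+ count of 33 became 19 with INPUT as denominator and 9 to 33 with 1 mouse left out, 9 without CPEB4 GT/+ mouse 2. The CPEB4 KO count of 32 ran from 15, without CPEB4 KO mouse 2, to 33. WASH minus INPUT gave 33 higher with aligned arrays, where 9818 of the 12822 genes were higher, against 19 in the fit reported, where 5785 were. The count was lower with any 1 mouse left out. A mouse left out leaves its genotype with 1 sample, assumed to vary like the others. The WT median of the 32 genes stayed at -0.85 when a CPEB4 GT/+ or CPEB4 KO mouse was left out. Only the estimate of spread shared by the genotypes, with its degrees of freedom, changed there. The cause of the other changes was not tested.

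Signs turned in a few cases. Without CPEB4 GT/+ mouse 2, the CPEB4 GT/+ minus WT ratio had a median of 0.17, and Ndufb10 was at 0.15; without CPEB4 GT/+ mouse 1 they were at -0.79 and -1.38. The INPUT median of that contrast was -0.0045 without CPEB4 GT/+ mouse 1 and 0.062 without mouse 2. Ndufa4l2 turned with aligned arrays in ELUTED minus WASH (-0.24), WASH minus INPUT (0.043) and ELUTED minus INPUT (-0.20), and in the last with quantile normalization (-0.020). Beyond the number, the labels do not say what same-numbered mice of different genotypes share. Across genes, the difference between mice 1 and 2 in the long-tail ratio correlated at -0.33 for WT with CPEB4 GT/+. It correlated at -0.28 for WT with CPEB4 KO and at 0.51 for CPEB4 GT/+ with CPEB4 KO. The source of these correlations was not tested. With the replicate block 33 members were lower over the 3 genotypes, where 6153 of all 12822 genes were. By genotype 31 were lower in WT (3283 of all genes), 33 in CPEB4 GT/+ (4699) and 33 in CPEB4 KO (4961). In WASH minus INPUT 17 were higher (5739 of all genes), and in ELUTED minus INPUT 33 were lower (3698). The count was 0 in each of the 6 genotype contrasts, for members and for all genes. Over all alternatives 177 counts stayed within 1.5 times the value reported, 7 fell below and 3 rose above that. The 177 include the 6 genotype contrasts, where 0 members were called in every run and 0 against 0 was taken as unchanged. The tally thus says little of how firm the other counts were.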
